A study of Mus musculus with 10 samples.

Results

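The mouse genes whose symbol begins with Kcn encode the pore-forming and auxiliary subunits of potassium channels. They were picked by symbol alone, as every row of the deposited table whose Ensembl identifier has a mouse symbol of Kcn, a family letter or letters and a number. This gave 86 of the 29527 genes in the table, out of 92 such symbols, and Kcna10, Kcnj1, Kcnj11, Kcnk16, Kcns1 and Kcnv1 were not analysed here. RNA was taken from the dissected intermediate lobe (IL) of the pituitary of mice aged 2 to 3 months, and 1 bulk library was sequenced for each mouse. There were 4 wild-type (WT) samples, 3 p27-/- samples and 3 p27-/-;Sox2+/- samples, from males and females on a mixed background. Mice of both mutant genotypes lack Cdkn1b, the gene of the cell cycle inhibitor P27, and the compound mutants have in addition a single copy of Sox2, a transcription factor of pituitary stem cells. Both changes are present in every cell of the animal, and no group carried the Sox2 change alone, so it was measured only without P27. The comparisons asked what the loss of p27 alters in the IL and which of these differences are altered when a copy of Sox2 is also removed.

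Potassium channels let potassium flow out of the cell, which brings the membrane back towards rest after a spike and sets how easily the next one fires. The IL holds a single endocrine cell type, the melanotroph, which fires spontaneously and releases hormones made from Pomc, and dopamine from the brain restrains it through the receptor Drd2. Voltage-gated channels help to end each spike, and calcium-activated channels open when calcium rises in the cell. Inward rectifiers and the leak channels of the two-pore domain class (Kcnk) hold the resting potential. Auxiliary subunits change the opening, calcium sensitivity or traffic of the pores.

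The values are log2 of normalized read counts as deposited. In them, genes with few reads appear to be pulled towards their mean over the samples, so small differences of low genes may be understated. This was read from the values, since the transformation is not given in the sources used here. The reads per sample are not in the table. A gene was tested if it averaged 3.32 or more in log2 over the 10 samples, a count of 10, which 17268 genes of the table and 58 of the 86 channel genes met. An adjusted p under 0.05, from limma with Benjamini-Hochberg adjustment over all 17268 genes, counted as a difference. Cdkn1b was at 8.54, 8.85, 8.39 and 8.66 in WT, at 8.27, 8.04 and 8.22 in p27-/- and at 8.10, 7.73 and 7.83 in p27-/-;Sox2+/- samples. Both mutants lay below WT, and a value over the whole gene does not tell which part of the transcript the reads came from. Sox2 was at 7.34, 7.39, 7.75 and 7.34 in WT and at 7.33, 7.45 and 7.08 in p27-/- samples. In p27-/-;Sox2+/- samples it was at 7.07, 6.88 and 7.04. Its limma adjusted p was 0.459 for p27-/- against WT, 0.0811 for the compound mutant against WT and 0.791 between the mutants. None of these differences of Sox2 passed the test.

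WT replicate 2 stood apart from the other WT samples. The summed level of the anterior lobe hormone markers was 222704 normalized counts in it and 14931 to 20909 in the other WT samples, and the posterior lobe markers summed to 1189 in it and to 3444 to 5399 in the others. Anterior lobe markers summed to 96270, 7002 and 29482 in p27-/- replicates 1, 2 and 3, so p27-/- replicate 1 was also high. In p27-/-;Sox2+/- samples they summed to 10863, 12236 and 28963. Posterior lobe markers summed to 1642 to 1997 in p27-/- samples and to 1328, 1403 and 4729 in p27-/-;Sox2+/- samples, and 0 of the 7 markers passed the test in either mutant. The melanotroph markers Pomc, Pax7, Pcsk2, Tbx19 and Drd2 were all measured, and Pcsk2 was the 1 of these 5 that passed the test, higher in p27-/- samples. In bulk RNA, fewer cells of a type and less RNA per cell cannot be told apart.

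Of the 58 tested channel genes, the auxiliary subunit Kcnip3 had the highest level per kb of transcript in the WT IL, at 562 normalized counts per kb. KCNIP3 binds calcium, assembles with Kv4 pores and, under the name DREAM, is also known as a transcriptional repressor. It ranked first whether the median or the longest annotated coding transcript was taken as the length. Its mean on the log2 scale per kb was 9.13 ± 0.09 (SD, n = 4). Kcnmb4 stood at 219, Kcnb2 at 215, Kcnc1 at 211 and Kcnj6 at 200 per kb, and their means on the log2 scale differed by less than the SD of Kcnc1 over the WT samples. This closeness depended on the length used, since with the longest transcript the means were 7.59 for Kcnb2, 7.28 for Kcnj6, 7.17 for Kcnc1 and 6.99 for Kcnmb4, a range wider than that SD.

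The class named calcium- or sodium-activated was taken from the symbols Kcnma, Kcnn, Kcnt and Kcnu, not from what opens each channel. Within it, the SK channel gene Kcnn3 had 170 normalized counts per kb, the BK channel gene Kcnma1 109 and the sodium-activated Kcnt1 64.6. Of the leak channels, Kcnk1 had 191, Kcnk2 81.9 and Kcnk3 38.4 per kb. Of the G protein-gated inward rectifiers, which dopamine receptors can open, Kcnj6 had 200, Kcnj3 95.2 and Kcnj9 33.2 per kb, while Kcnj5 was far below the minimum, at 0.11 ± 0.06 (SD, n = 4) on the log2 scale. Kcnj8, the pore of an ATP-sensitive channel, had 5.67 per kb.

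**Figure D1:**
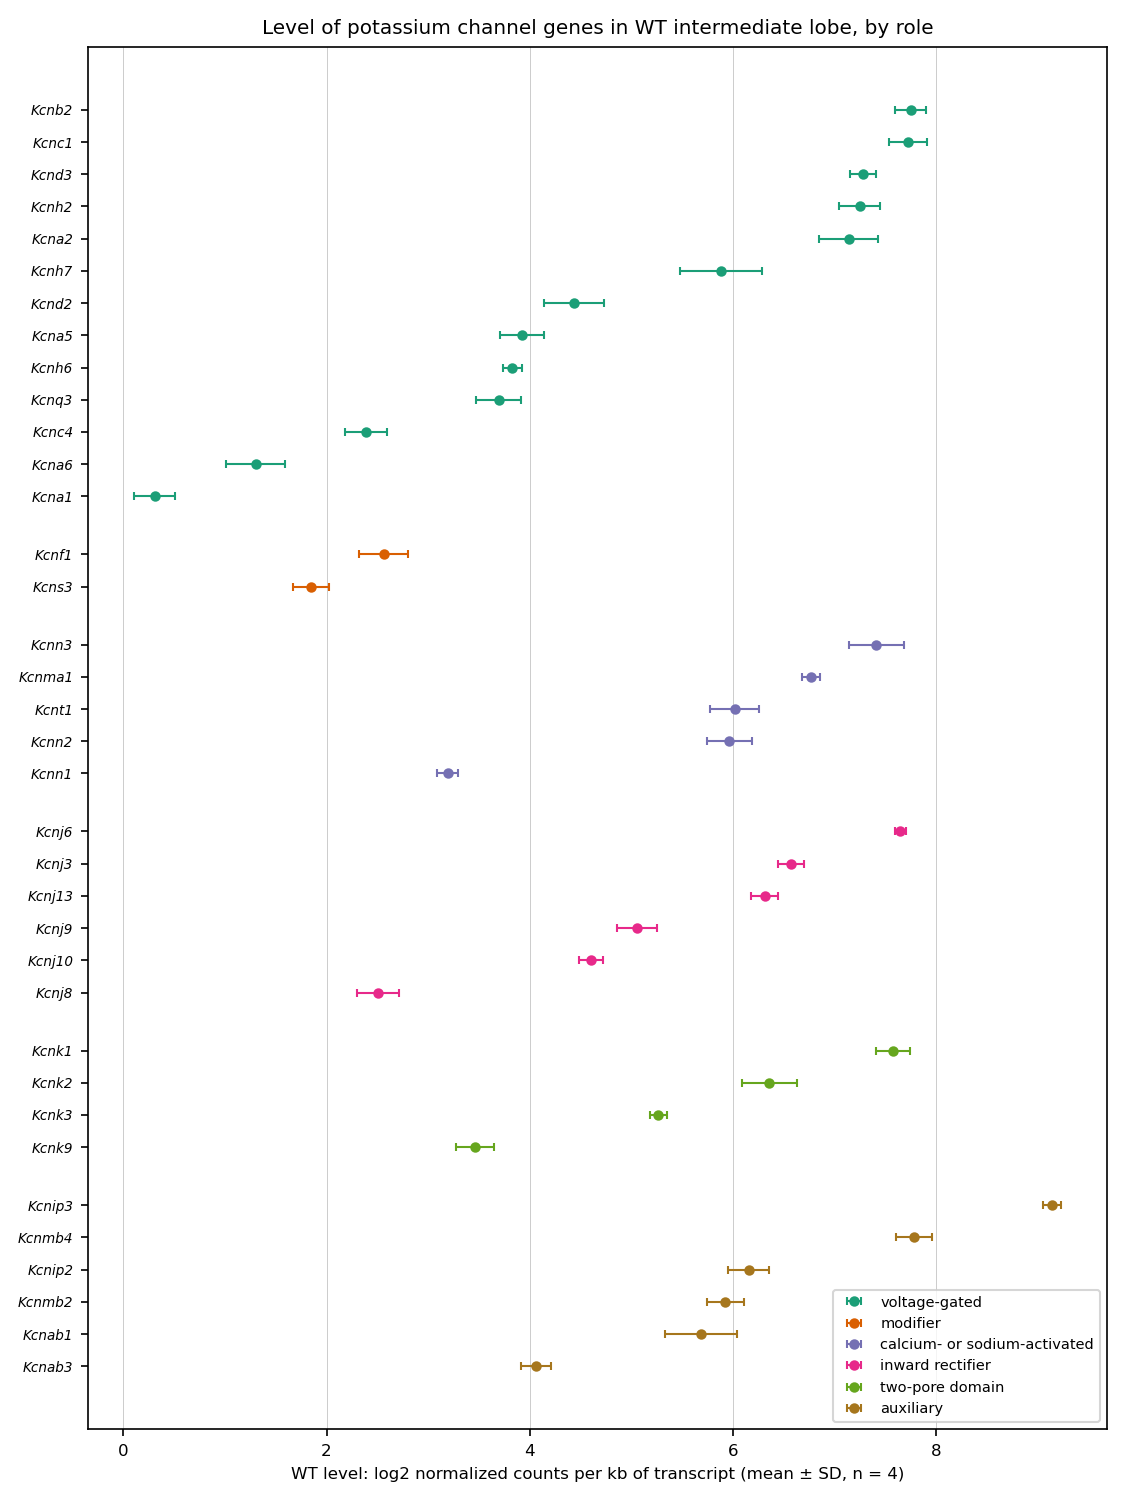
Level of 36 of the 58 tested potassium channel genes, those described in the text, in WT IL, as log2 normalized counts per kb of the median coding transcript (horizontal axis; points are means and bars SD, n = 4), ordered within each role class. Kcnip3 at 9.13 lies to the right of the other genes plotted, and Kcna1 at 0.31 is the lowest of those tested.

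The 28 channel genes below the minimum had means over the 10 samples between -1.88 and 3.12 on the log2 scale and were not tested. They included 6 of the 8 modifier subunits, which form no channel of their own, 7 of the 13 leak channels, 5 of the 13 inward rectifiers and 6 of the 15 auxiliary subunits. Only 3 of the 29 voltage-gated pores, Kcna7, Kcnh4 and Kcnq5, and only Kcnn4 of the 8 calcium- or sodium-activated pores fell below it.

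When p27-/- samples were set against WT, 11 of the 58 tested channel genes passed the test (19.0%, against 7.78% of all tested genes), 3 higher and 8 lower. Of all tested genes 3.16% passed as higher and 4.62% as lower. The higher genes were the auxiliary subunits Kcnip3 and Kcnmb4 and the leak channel Kcnk3. The lower ones were the voltage-gated Kcnd3, Kcna2 and Kcnb2, the calcium- or sodium-activated Kcnn3 and Kcnt1, the inward rectifiers Kcnj10 and Kcnj13, and the leak channel Kcnk9. The median log2 fold change of the 58 genes was -0.01, beside 0.01 over all tested genes. In 15 of the 58 genes (25.9%) the values of the p27-/- and WT samples did not overlap, compared with 20.6% of all tested genes.

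This count depended on single samples. Without p27-/- replicate 1 it was 6, beside 3.53% of all tested genes, and without p27-/- replicate 2 or replicate 3 it was 4, beside 3.31% and 2.33%. Without WT replicate 3 or WT replicate 4 it was 7 and 4, beside 4.72% and 4%, so the share of all tested genes fell in the same fits. It was 4 with the posterior lobe markers as a covariate, a setting in which 2.33% of all tested genes passed. Kcnip3, Kcnk3 and Kcnd3 passed the test in all 10 fits that left out a sample and in all 12 other settings. Kcna2 failed in 1 of these 22, without p27-/- replicate 3, with a limma adjusted p of 0.057, and the other 7 genes each passed in 1 to 6 of the 10 fits without a sample. Of these, Kcnn3 passed in 1, Kcnt1 and Kcnmb4 in 3 and Kcnj10 in 4.

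Kcnip3 (ENSMUSG00000079056, chromosome 2, 127456498 to 127522094 in GRCm38) was at 10.64, 10.46, 10.65 and 10.57 in WT, at 11.01, 11.10 and 11.15 in p27-/- and at 10.76, 10.77 and 10.83 in p27-/-;Sox2+/- samples. The groups formed 3 separate ranges, with WT lowest, p27-/- highest and the compound mutant between them. Against WT its log2 fold change was 0.50 (SE 0.08, limma adjusted p = 0.00279) in p27-/- and 0.20 (SE 0.08, limma adjusted p = 0.183) in p27-/-;Sox2+/- samples. Between the mutants the difference was -0.30 (SE 0.08, limma adjusted p = 0.302), which passed only with array weights, a fit that weights each sample by its overall spread, with a limma adjusted p of 0.0244. RefSeq lists 3 starts for Kcnip3, and a value per gene does not say which of them was used. The 250 bases before each of these starts and before that of Kcnd3 are shown because these are the genes called in every setting for which the RefSeq table (GRCm38.p6) has a window, with CpG sites in capitals.
Kcnip3, minus strand, chr2:127482500-127482749: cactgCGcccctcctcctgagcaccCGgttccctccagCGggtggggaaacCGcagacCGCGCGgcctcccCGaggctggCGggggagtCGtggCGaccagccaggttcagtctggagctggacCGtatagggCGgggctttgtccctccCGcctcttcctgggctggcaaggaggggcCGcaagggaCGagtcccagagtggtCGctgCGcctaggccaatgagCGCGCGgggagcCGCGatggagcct
Kcnip3, minus strand, chr2:127521393-127521642: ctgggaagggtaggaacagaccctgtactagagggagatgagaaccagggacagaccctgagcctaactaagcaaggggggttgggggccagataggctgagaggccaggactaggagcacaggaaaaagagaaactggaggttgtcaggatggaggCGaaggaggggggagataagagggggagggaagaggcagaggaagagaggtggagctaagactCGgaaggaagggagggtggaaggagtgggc
Kcnip3, minus strand, chr2:127522095-127522344: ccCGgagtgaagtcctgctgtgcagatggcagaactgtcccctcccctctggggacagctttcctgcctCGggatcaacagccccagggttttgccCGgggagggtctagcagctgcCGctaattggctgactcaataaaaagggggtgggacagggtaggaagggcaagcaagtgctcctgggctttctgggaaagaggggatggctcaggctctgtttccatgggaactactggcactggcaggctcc
Kcnd3, plus strand, chr3:105451640-105451889: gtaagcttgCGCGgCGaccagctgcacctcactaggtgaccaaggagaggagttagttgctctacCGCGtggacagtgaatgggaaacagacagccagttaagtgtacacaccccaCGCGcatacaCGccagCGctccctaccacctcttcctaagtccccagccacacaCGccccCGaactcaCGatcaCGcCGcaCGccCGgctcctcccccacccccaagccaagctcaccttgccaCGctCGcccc
The first Kcnip3 window held 23 CpG sites and the others 2 and 4, the Kcnd3 window held 18, and the median over all 32851 windows was 6. Among the 11 called genes, 7 had a window, 9 windows in all. None of these 9 held ACAATG, the SOX motif searched on both strands, or GTCAAGG, a form of the DRE element that KCNIP3 is known to bind, compared with 10.7% and 2.75% of all windows. With 9 windows, 0 matches cannot be told apart from these shares. Such matches describe only the letters in these windows.

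Kcnk3 (ENSMUSG00000049265, chromosome 5, 30588170 to 30625270) encodes TASK1, an acid-sensitive leak channel. It was at 7.15, 7.18, 7.32 and 7.13 in WT, at 7.83, 7.93 and 7.76 in p27-/- and at 7.82, 7.70 and 7.94 in p27-/-;Sox2+/- samples. Both mutants lay wholly above WT and overlapped each other. Against WT, the log2 fold change was 0.65 (SE 0.10, limma adjusted p = 0.00295) in p27-/- and 0.63 (SE 0.10, limma adjusted p = 0.00729) in p27-/-;Sox2+/- samples. The mutants differed by -0.02 (95% confidence interval -0.26 to 0.21).

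Kcnmb4 (chromosome 10, 116417861 to 116473859), the neuronal β subunit of the BK channel, was the other gene that was higher in p27-/- samples. It read 7.44, 7.68, 7.81 and 7.83 in WT, 7.99, 8.10 and 8.59 in p27-/- and 8.12, 7.90 and 7.91 in p27-/-;Sox2+/- samples. Both mutants lay above all WT samples, and p27-/- replicate 3 was the highest. Compared with WT, its log2 fold change was 0.53 (SE 0.14, limma adjusted p = 0.0394) in p27-/- samples, and 0.35 without replicate 3 of that group (limma adjusted p = 0.187). In p27-/-;Sox2+/- samples it was 0.29 (SE 0.14, limma adjusted p = 0.322). Exons of Kcnmb4 overlap those of 1700058G18Rik and 4933400F03Rik on the opposite strand, and the counting did not use strand, so their reads cannot be told apart.

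Across the 15 auxiliary subunits, 9 were tested and had a median log2 fold change of 0.18 in p27-/- samples, with 2 higher and 7 that did not pass. Those 7 included Kcnab3, a Kv1 β subunit, at 0.33 (SE 0.14, limma adjusted p = 0.176), Kcnmb2, a BK β subunit, at 0.18 (SE 0.12, limma adjusted p = 0.384) and Kcnip2, a Kv4 partner, at 0.16 (SE 0.13, limma adjusted p = 0.483). Kcnab1, another Kv1 β subunit, had the lowest value, -0.37 (SE 0.18, limma adjusted p = 0.212).

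**Figure D2:**
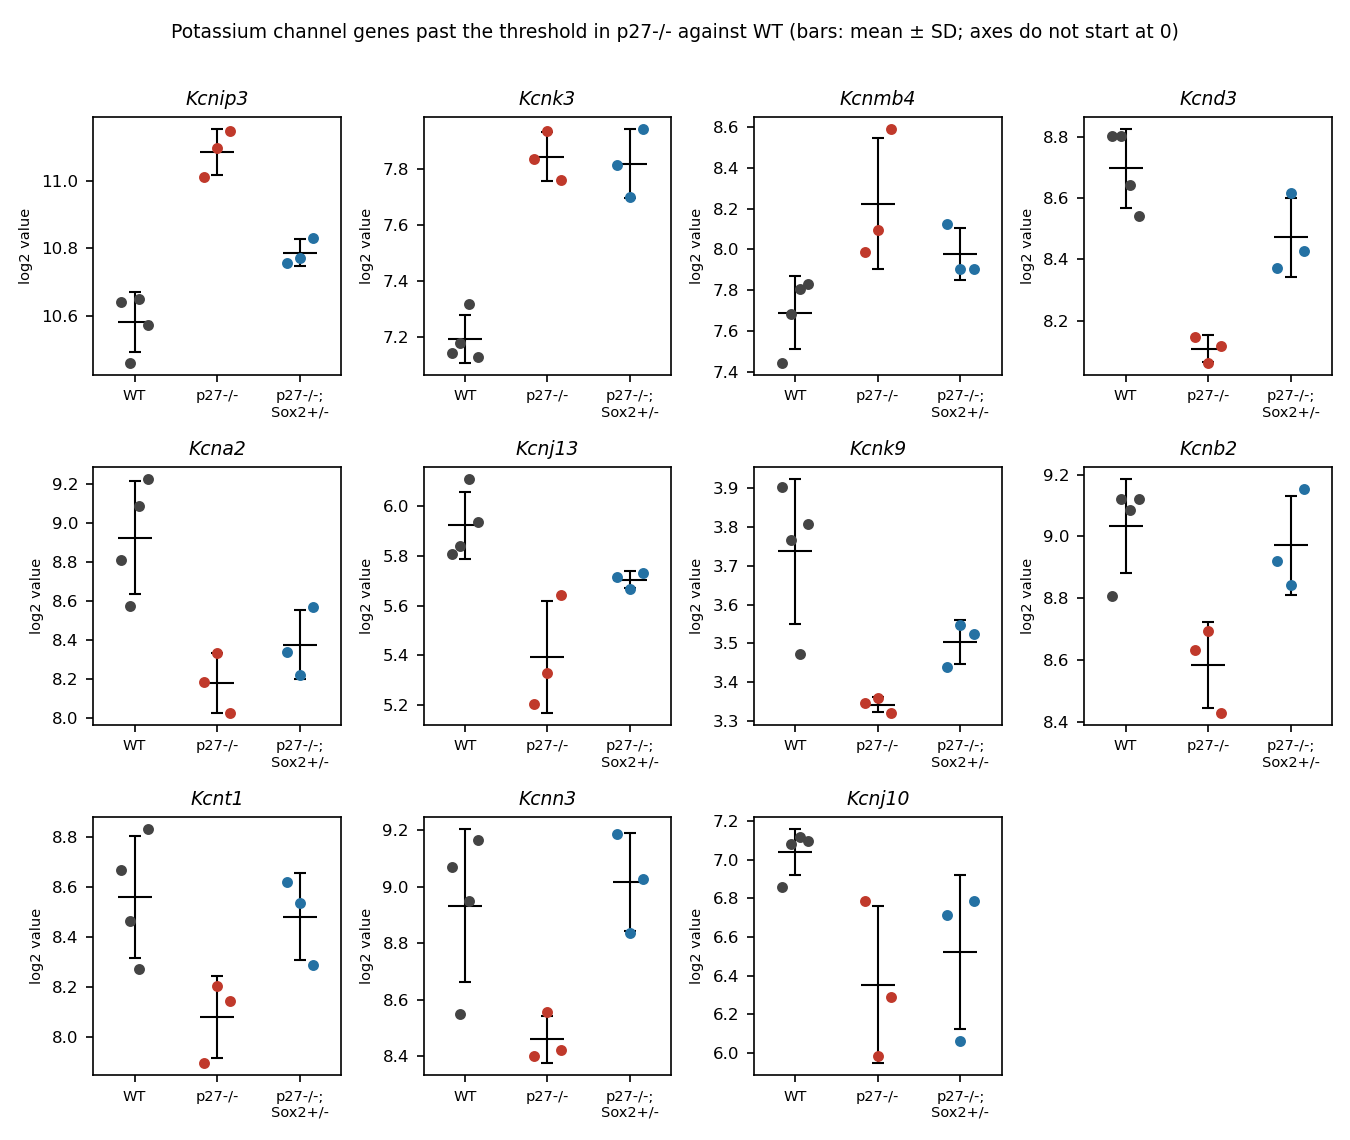
Log2 value (vertical axes, which do not start at 0) of the 11 potassium channel genes past the threshold in p27-/- against WT, in each WT (n = 4), p27-/- (n = 3) and p27-/-;Sox2+/- (n = 3) sample, with bars for mean ± SD. Kcnk3 is raised in both mutants, while Kcnn3, Kcnb2 and Kcnt1 in p27-/-;Sox2+/- samples lie within or close to the WT range.

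Of the 26 voltage-gated pores tested, 3 were lower in p27-/- samples, 0 were higher and 23 did not pass, with a median log2 fold change of -0.02. Kcnd3 (ENSMUSG00000040896, chromosome 3, 105451890 to 105674002) encodes a Kv4 pore of the transient A-type current, the current that KCNIP subunits regulate. It was at 8.80, 8.80, 8.64 and 8.54 in WT, at 8.15, 8.06 and 8.12 in p27-/- and at 8.37, 8.62 and 8.43 in p27-/-;Sox2+/- samples. The p27-/- samples lay below every other sample, and the compound mutant overlapped WT. The log2 fold change was -0.59 (SE 0.10, limma adjusted p = 0.00409) in p27-/- and -0.23 (SE 0.10, limma adjusted p = 0.247) in p27-/-;Sox2+/- samples. Between the mutants Kcnd3 differed by 0.36 (SE 0.10, limma adjusted p = 0.33), and its limma adjusted p was 0.0197 with array weights. Its exons overlap 1700095B22Rik on the opposite strand. Kcnd2, another Kv4 pore, read 6.80 ± 0.30 (SD, n = 4) in WT and 7.05 ± 0.07 (SD, n = 3) in p27-/- samples, with a log2 fold change of 0.26 (SE 0.15, limma adjusted p = 0.305).

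Kcna2 (ENSMUSG00000040724, chromosome 3, 107090883 to 107115005), a low-threshold Kv1 pore known from axons, was at 8.81, 8.58, 9.09 and 9.23 in WT, at 8.19, 8.34 and 8.03 in p27-/- and at 8.34, 8.22 and 8.57 in p27-/-;Sox2+/- samples. All mutant samples lay below all WT samples, and the lowest WT sample was WT replicate 2. Against WT, the log2 fold change was -0.74 (SE 0.14, limma adjusted p = 0.00893) in p27-/- and -0.55 (SE 0.14, limma adjusted p = 0.062) in p27-/-;Sox2+/- samples. Without WT replicate 2 these were -0.86 (limma adjusted p = 0.00229) and -0.66 (limma adjusted p = 0.017), and the second passed in no other fit without a sample. With the posterior lobe markers as a covariate the first was -0.56 (limma adjusted p = 0.0462), and the part of the posterior lobe in this difference was not tested further.

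Kcnb2 (chromosome 1, 15286925 to 15723751), a Kv2 pore of the delayed rectifier, was at 8.81, 9.12, 9.09 and 9.12 in WT, at 8.63, 8.70 and 8.43 in p27-/- and at 8.92, 8.84 and 9.15 in p27-/-;Sox2+/- samples. The p27-/- samples lay below all others. Compared with WT, its log2 fold change was -0.45 (SE 0.11, limma adjusted p = 0.028) in p27-/- and -0.06 (SE 0.11, limma adjusted p = 0.821) in p27-/-;Sox2+/- samples. The first passed in 5 of the 10 fits without a sample and in 9 of the 12 other settings. Its limma adjusted p was 0.136 without p27-/- replicate 3 and 0.12 with the posterior lobe markers as a covariate.

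Of the other voltage-gated pores, Kcnq3, a subunit of the M channel, which damps repeated firing, had a log2 fold change of -0.05 in p27-/- samples. Kcnh2, the ERG channel, had -0.13, and Kcnc1, a fast Kv3 pore, 0.15. None of these 3 passed the test in any comparison, and their limma adjusted p in p27-/- samples lay between 0.424 and 0.866.

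Of the 7 tested pores classed by symbol as calcium- or sodium-activated, 2 were lower in p27-/- samples and 0 higher. In this class 5 of the 7 log2 fold changes were below 0, with a median of -0.26. Kcnn3 (chromosome 3, 89520164 to 89672494), an SK channel of the afterhyperpolarization, was at 9.07, 8.55, 8.95 and 9.16 in WT, at 8.40, 8.56 and 8.42 in p27-/- and at 9.19, 8.84 and 9.03 in p27-/-;Sox2+/- samples. The p27-/- samples overlapped WT at WT replicate 2 alone and lay below the whole compound group. The log2 fold change was -0.47 (SE 0.13, limma adjusted p = 0.0467) in p27-/- and 0.08 (SE 0.13, limma adjusted p = 0.797) in p27-/-;Sox2+/- samples. The first passed in 6 of the 12 other settings and in 1 of the 10 fits without a sample, that without WT replicate 2, where it was -0.60 (limma adjusted p = 0.00597). The limma adjusted p reached 0.151 without p27-/- replicate 3, and with the posterior lobe markers as a covariate the log2 fold change was -0.34 (limma adjusted p = 0.231). The difference between the mutants was 0.56 (SE 0.14, limma adjusted p = 0.232).

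Kcnt1 (chromosome 2, 25863791 to 25918273), a sodium-activated pore, was at 8.67, 8.46, 8.27 and 8.83 in WT, at 7.89, 8.20 and 8.14 in p27-/- and at 8.62, 8.53 and 8.29 in p27-/-;Sox2+/- samples. The p27-/- samples lay below all others, by less than 0.1 from the lowest WT sample. Against WT, the log2 fold change was -0.48 (SE 0.14, limma adjusted p = 0.0463) in p27-/- and -0.08 (SE 0.14, limma adjusted p = 0.816) in p27-/-;Sox2+/- samples. Kcnma1, the BK pore, had -0.26 (SE 0.09, limma adjusted p = 0.0987) in p27-/- and 0.03 (SE 0.09, limma adjusted p = 0.92) in p27-/-;Sox2+/- samples. The SK genes Kcnn2 and Kcnn1 had -0.33 (limma adjusted p = 0.15) and -0.07 (limma adjusted p = 0.815) in p27-/- samples.

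Among the 8 inward rectifiers tested, 2 were lower in p27-/- samples and 0 higher. Kcnj10 (chromosome 1, 172341210 to 172374085), the Kir4.1 pore known from glia, was at 6.86, 7.08, 7.12 and 7.10 in WT, at 6.79, 5.98 and 6.29 in p27-/- and at 6.71, 6.06 and 6.79 in p27-/-;Sox2+/- samples. Both mutants lay below WT and were more spread, with an SD of 0.41 and 0.40 against 0.12. Compared with WT, its log2 fold change was -0.69 (SE 0.20, limma adjusted p = 0.0474) in p27-/- and -0.52 (SE 0.20, limma adjusted p = 0.176) in p27-/-;Sox2+/- samples. With the posterior lobe markers as a covariate the first was -0.59 (limma adjusted p = 0.194). It also failed without WT replicate 2, and without p27-/- replicate 2 its limma adjusted p was 0.2.

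Kcnj13 (chromosome 1, 87384577 to 87394729), the Kir7.1 pore known from epithelia, was at 5.81, 5.84, 6.11 and 5.94 in WT, at 5.20, 5.33 and 5.64 in p27-/- and at 5.72, 5.67 and 5.73 in p27-/-;Sox2+/- samples. The 3 groups did not overlap, with p27-/- lowest and the compound mutant just under WT. The log2 fold change was -0.53 (SE 0.13, limma adjusted p = 0.0244) in p27-/- and -0.22 (SE 0.13, limma adjusted p = 0.394) in p27-/-;Sox2+/- samples. The first passed in 6 of the 10 fits without a sample. Its limma adjusted p was 0.113 without p27-/- replicate 1 and 0.123 with the posterior lobe markers as a covariate. Kcnj13 shares exons with Gigyf2 on the opposite strand, and their reads cannot be told apart in counts made without strand.

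Of the G protein-gated rectifiers, Kcnj3 (chromosome 2, 55411798 to 55598145) was at 8.48, 8.56, 8.78 and 8.57 in WT, at 8.62, 8.85 and 8.59 in p27-/- and at 8.87, 9.05 and 9.04 in p27-/-;Sox2+/- samples. Kcnj9 (chromosome 1, 172320508 to 172329322) was at 6.94, 6.77, 6.49 and 6.85 in WT, at 6.83, 7.19 and 6.44 in p27-/- and at 7.44, 7.34 and 7.21 in p27-/-;Sox2+/- samples. For both genes the compound mutant lay above all other samples, while p27-/- overlapped WT. In p27-/-;Sox2+/- against WT samples the log2 fold change was 0.39 (SE 0.10, limma adjusted p = 0.0582) for Kcnj3 and 0.57 (SE 0.16, limma adjusted p = 0.085) for Kcnj9, so neither passed the test. Kcnj3 passed in 1 of the 10 fits without a sample, that without WT replicate 3 (limma adjusted p = 0.0392), and in 1 of the 12 other settings, with array weights (limma adjusted p = 0.0132), and its exons overlap Gm17595 on the opposite strand. Kcnj6, their partner subunit, was at 9.07 to 9.19 in WT, at 9.16 to 9.68 in p27-/- and at 8.81 to 9.35 in p27-/-;Sox2+/- samples, and none of its differences passed.

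Of the 6 leak channels tested, Kcnk3 was higher in p27-/- samples and Kcnk9 was lower. Kcnk9 (chromosome 15, 72501873 to 72548614) encodes TASK3, the closest relative of the TASK1 channel that Kcnk3 encodes. It was near the minimum level, at 3.90, 3.77, 3.47 and 3.81 in WT, at 3.35, 3.36 and 3.32 in p27-/- and at 3.44, 3.55 and 3.52 in p27-/-;Sox2+/- samples. The p27-/- samples lay below all others, and the compound mutant overlapped WT at WT replicate 3. Against WT, the log2 fold change was -0.40 (SE 0.10, limma adjusted p = 0.0263) in p27-/- and -0.23 (SE 0.10, limma adjusted p = 0.214) in p27-/-;Sox2+/- samples. The first passed in 6 of the 10 fits without a sample. Its limma adjusted p was 0.102 without p27-/- replicate 3 and 0.0809 with the posterior lobe markers as a covariate. Kcnk1 and Kcnk2, which had higher levels per kb than Kcnk3, had log2 fold changes of -0.22 (SE 0.10, limma adjusted p = 0.195) and -0.25 (SE 0.14, limma adjusted p = 0.309) in p27-/- samples. The 2 modifier subunits above the minimum, Kcnf1 and Kcns3, had log2 fold changes of -0.03 and -0.02 and did not pass.

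**Figure D3:**
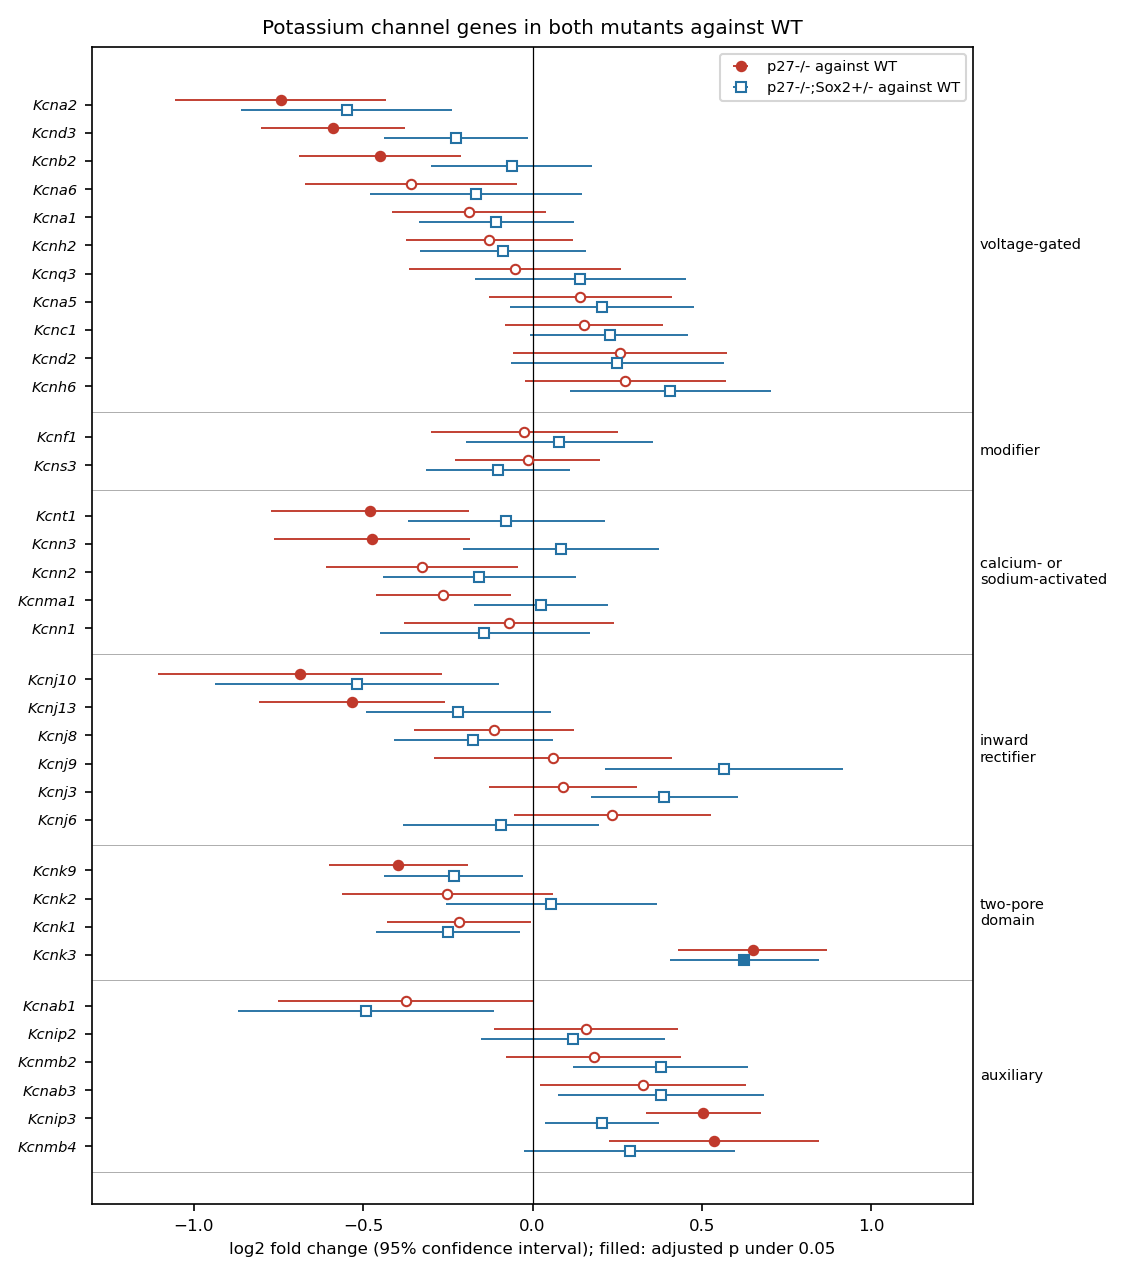
Log2 fold change with 95% confidence interval (horizontal axis) of 34 tested potassium channel genes in p27-/- against WT (circles) and p27-/-;Sox2+/- against WT (squares), by role class, with filled symbols for an adjusted p under 0.05. The circles of 11 genes are filled, 8 of them below 0, and Kcnk3 is the 1 gene with a filled square. Both comparisons share the same 4 WT samples.

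In p27-/-;Sox2+/- compared with WT samples, 1 of the 58 tested channel genes passed the test, Kcnk3 (1.72%, against 2.71% of all tested genes, 0.828% higher and 1.88% lower). Kcnk3 passed in all 10 fits without a sample and in all 12 other settings. The count was 2 without WT replicate 2, with Kcna2 as the added gene, beside 3.41% of all tested genes, and 3 without WT replicate 3, beside 1.96%. With array weights 5 genes passed, 3 higher and 2 lower, beside 7.18% of all tested genes. The median log2 fold change was 0.04, beside 0.01 over all tested genes, and 16 of the 58 genes (27.6%) had values that did not overlap WT, 11 of them higher, compared with 15% of all tested genes and 7.02% as higher. At an unadjusted p under 0.05 there were 12 higher (20.7%) and 7 lower (12.1%) genes, against 7.64% and 10.2% of all tested genes. The next genes by p after Kcnj3, Kcna2 and Kcnj9 were Kcnmb2, with 0.38 (SE 0.12, limma adjusted p = 0.112), and Kcnh6, an ERG-type pore, with 0.41 (SE 0.14, limma adjusted p = 0.135).

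Between p27-/-;Sox2+/- and p27-/- samples, 0 of the 58 channel genes passed the limma test, against 0.145% of all tested genes, and 2 passed with array weights, Kcnd3 and Kcnip3, beside 1.64% of all tested genes. At an unadjusted p under 0.05 there were 12 channel genes (20.7%, against 6.65% of all tested genes), 10 higher in the compound mutant and 2, Kcnip3 and Kcnj6, lower, where 3.46% and 3.19% of all tested genes were higher and lower. The 10 were Kcnn3, Kcnd3, Kcnb2, Kcnh7, Kcnma1, Kcnj9, Kcnt1, Kcnj3, Kcnj13 and Kcnc4, of which Kcnh7 and Kcnc4 were named after their values were seen. Kcnn3, Kcnd3, Kcnb2, Kcnt1, Kcnj13 and Kcnip3 had also passed in p27-/- against WT samples. Both comparisons use the same p27-/- samples, so they are not independent. The median log2 difference was 0.09, beside -0.00 over all tested genes, and in 17 of the 58 genes (29.3%) the mutants did not overlap, 14 of them higher in the compound mutant, compared with 15.3% and 7.51% of all tested genes.

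Kcnh7, an ERG-type pore, had the largest of these differences, 0.70 (SE 0.24, limma adjusted p = 0.49). It was at 7.65, 7.62 and 6.91 in p27-/- and at 7.81, 8.08 and 8.40 in p27-/-;Sox2+/- samples, and at 7.68, 6.91, 7.82 and 7.59 in WT. The wide range within p27-/- and within WT exceeded the gap between the mutants, and exons of Kcnh7 overlap Gca on the opposite strand.

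Of the 39 other genes of potassium current that were listed (anchors, transporters, G proteins and receptor inputs), 35 were tested, and in p27-/- samples 0 were higher and 3 lower. Cntnap2, which clusters Kv1 channels such as Kcna2 along axons, was at 8.82, 8.81, 9.16 and 9.09 in WT, at 7.90, 7.91 and 7.62 in p27-/- and at 8.41, 8.52 and 8.85 in p27-/-;Sox2+/- samples. Its p27-/- samples lay below all others. Compared with WT, its log2 fold change was -1.16 (SE 0.13, limma adjusted p = 0.000396) in p27-/- samples, and it was the 1 gene of the list to differ between the mutants, by 0.78 (SE 0.14, limma adjusted p = 0.048).

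Lgi1, a secreted protein that acts on Kv1 channels, had log2 fold changes of -1.03 (SE 0.21, limma adjusted p = 0.0109) in p27-/- and -0.86 (SE 0.21, limma adjusted p = 0.0429) in p27-/-;Sox2+/- samples. WT replicate 2 was at 6.87 and the other WT samples at 7.72, 7.67 and 7.89. Drd2 was at 11.52 ± 0.20 (SD, n = 4) in WT and 11.55 ± 0.12 (SD, n = 3) in p27-/- samples, a log2 fold change of 0.03 (95% confidence interval -0.23 to 0.29).

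Markers of other cell types were read in the same samples, since Kcnj10 is known from glia and Kcnj8 from mural cells. The posterior lobe list, with the mean of its log2 values centred over the samples, ran from -0.59 to 0.84 in WT, from -0.45 to -0.03 in p27-/- and from -0.64 to 0.55 in p27-/-;Sox2+/- samples. Its 7 markers had a median log2 fold change of -0.72 in p27-/- and -0.62 in p27-/-;Sox2+/- samples. Of the 4 oligodendrocyte markers, Mag and Mog were below the minimum, and 0 of the 2 tested passed. Of the 7 anterior lobe markers tested, Fshb alone passed, with -2.04 (SE 0.50, limma adjusted p = 0.028) in p27-/- and -2.27 (SE 0.50, limma adjusted p = 0.0294) in p27-/-;Sox2+/- samples. Of the 6 endothelial markers, Kdr alone passed, with -0.82 (SE 0.16, limma adjusted p = 0.00966) in p27-/- and -0.67 (SE 0.16, limma adjusted p = 0.0459) in p27-/-;Sox2+/- samples. In p27-/- samples 2 of 5 fibroblast markers were lower, and 0 of 4 mural and 0 of 5 macrophage markers passed. The 4 proliferation markers were all higher in p27-/- samples, with a median log2 fold change of 1.51. The part of these cell types in the differences of the channel genes was not tested beyond the fits with a marker covariate.

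**Figure D4:**
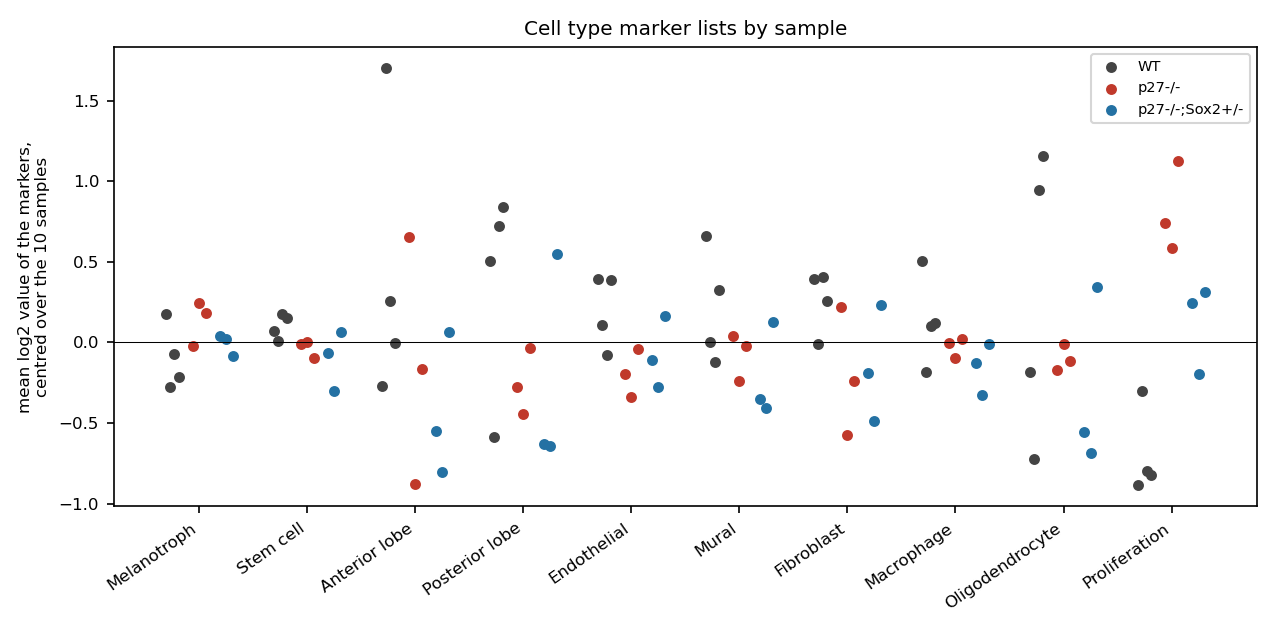
Mean log2 value of each marker list, centred over the 10 samples (vertical axis), for every WT, p27-/- and p27-/-;Sox2+/- sample. WT replicate 2 is the highest in the anterior lobe list, at 1.70, and the lowest WT sample in the posterior lobe list, at -0.59, and the p27-/- samples are the 3 highest in the proliferation list.

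Some channel genes lie near the targeted loci. Kcna1, Kcna5 and Kcna6 lie 8.2 to 8.4 Mb and Kcnj8 7.6 Mb from Cdkn1b on chromosome 6, and their log2 fold changes in p27-/- samples were -0.19, 0.14, -0.36 and -0.11. Kcnmb2 and Kcnmb3 lie 2.4 and 2.1 Mb from Sox2 on chromosome 3, where Kcnmb2 differed by 0.20 between the mutants and Kcnmb3 was below the minimum. None of those tested passed. Kcnn3, Kcnd3 and Kcna2 are also on chromosome 3, 54.9, 70.8 and 72.4 Mb from Sox2. They passed in p27-/- against WT samples, where neither group carried the Sox2 change. Other channel genes on chromosome 3, 30.3 to 72.8 Mb from Sox2, did not pass.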

How the data were processed

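Per the labels and the study's methods, RNA of dissected IL was amplified with the Ovation RNA-seq System V2 and sequenced on a HiSeq4000. The authors aligned the reads with STAR 2.5.2a, counted them per gene with RSEM 1.3.30 on Ensembl 89 transcripts of GRCm38 without strand, normalized the counts with DESeq2 1.18.1 and deposited log2 values. The transformation is not given in the sources used here. The table holds no read counts, so the depth of each sample is unknown, and precision rests on the 3 or 4 mice of a group. The genotype label put each sample in its group. Nothing in the labels says that samples of a group came from separate litters. The p-values set each difference between groups against the spread within the groups, with these samples taken as independent.

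The log2 values were tested as deposited with limma 3.58.1 under R 4.3.3 (eBayes with trend) in 1 fit of the 3 genotypes, with Benjamini-Hochberg adjustment over 17268 genes with a mean of at least 10 on the linear scale. The model was tested on simulated data. Levels per kb used the median length of annotated coding transcripts. These lengths and the exon overlaps came from an older GENCODE annotation, on an earlier genome build than the one used for counting. They may therefore differ from the transcripts that were counted. Tables were handled in Python 3.11.15 with pandas 2.3.3 and figures drawn with matplotlib 3.10.9. The channel genes, their role classes and the other lists were chosen with earlier results of these data known. Genes named with values were those that passed in any comparison, the 10 with the smallest p in each comparison with WT, the 3 highest per kb in each role class, those within 20 Mb of Cdkn1b or Sox2, and a fixed set of G protein-gated, ATP-sensitive, BK, SK, M-current, ERG, Kv2, Kv3, Kv4 and leak channel genes. Some genes that this rule or the lists hold are not reported here. The alternatives were no filter, a minimum of 50, quantile normalization, median centring, no trend, robust eBayes, array weights, fits with just the 2 groups compared, a block for the replicate number, Xist or posterior lobe markers as a covariate, and each sample left out in turn. Anterior lobe markers as a covariate and the longest transcript as the length were added after seeing the data. The model for counts was not applied, since the values are not counts.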

Additional observations from a re-analysis of the deposited data

Results flagged for a closer look

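In WT, 3 of the 38 named channel genes that were examined held 1 sample far from the other 3, by Dixon's ratio of its gap to the range of the group, where chance gives about 1.9. Kcnb2 was at 8.81 in WT replicate 1 and between 9.09 and 9.12 in the others (ratio 0.889). Kcnj10 was at 6.86 in the same sample and between 7.08 and 7.12 in the others (ratio 0.863). Kcnk1 was at 9.02 in WT replicate 3 and between 8.66 and 8.72 in the others (ratio 0.844). Without the sample that stood apart, Kcnb2 and Kcnj10 still passed the limma test in p27-/- against WT samples, and Kcnk1 still did not. Over all 10 fits without a sample, Kcnb2 passed in 5 and Kcnj10 in 4.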

How the results depend on the processing

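In p27-/- against WT samples, 6 channel genes passed with no filter and 6 with only the 2 groups compared, beside 2.81% and 4.67% of all tested genes. There were 4 with the posterior lobe markers as a covariate, 4 with the replicate number as a block, beside 2.33% and 3.45%, and between 4 and 10 with 1 sample left out, beside 2.33% to 9.9%. In p27-/-;Sox2+/- against WT samples, 2 passed with robust eBayes, 5 with array weights and between 1 and 3 with 1 sample left out, beside 3.08%, 7.18% and 0.463% to 3.81% of all tested genes. Between the mutants, 2 passed with array weights and 0 in every fit with 1 sample left out. The counts were within 1.5 times the main count under the other alternatives run. No named gene that passed changed direction under any alternative. The cause of these changes was not tested.

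With the replicate number as a block, 4, 1 and 0 channel genes passed in the 3 comparisons. The numbers were not taken as pairing the samples, since the deviations of same-numbered samples correlated between -0.238 and 0.182, and 1 of 9 pairs exceeded 0.1. Median centring and quantile normalization moved the median of all genes by at most 0.02 on the log2 scale. The apparent pull of low values towards their mean and the unknown depth limit what can be said of the 28 genes below the minimum and of Kcnk9 near it.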
